A study of Drosophila melanogaster with 30 samples.

Results

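Neuropeptide precursor genes encode the prohormones from which neurons and endocrine cells cut short signalling peptides. The set described here holds 37 genes of Drosophila melanogaster, chosen by symbol, and all 37 were present in the deposited tables of both collection times, which list 14040 genes at embryonic stage 16 (St16) and 14077 at the late stage at which the trachea fill with air (AFT). Nplp1, FMRFa, Pdf and the insulin-like peptide genes were left out of the set. RNA came from whole embryos, more than 200 per collection, with 3 biological replicates for each of 5 genotypes at each stage and 30 samples in all. The genotypes were elav-Gal4 driving UAS-col-HA (col), elav-Gal4 driving UAS-myc-lbe (lbe), elav-Gal4 driving UAS-col-HA and UAS-myc-lbe together (col + lbe), elav-Gal4 driving UAS-Flag-Ap and UAS-eya-HPC4 together (ap + eya), and elav-Gal4 over an OregonR chromosome (control). Every genotype, the control included, carried 1 copy of the elav-Gal4 driver, which is active throughout the nervous system and mainly in neurons that have left the cell cycle, so the transgenes were not restricted to peptidergic cells. The control carried no UAS transgene. The genes col (listed as kn), lbe, ap and eya encode transcription factors or cofactors of the network that specifies the Apterous neurons of the ventral nerve cord.

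A neuropeptide precursor passes into dense core vesicles, is cut by convertases, trimmed by carboxypeptidases and often amidated, and the released peptide acts mostly on G protein-coupled receptors. In the fly embryo most of these genes are read in small numbers of identified neurons, and several also in endocrine cells of the gut, the corpora cardiaca or the Inka cells of the trachea. In whole embryos, fewer cells of a type and less RNA per cell cannot be told apart.

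The values are TPM, a measure of transcript abundance that is corrected for transcript length and scaled to the same total in each library. Each genotype and stage has 1 value per gene, the authors' mean over replicates. No difference below could therefore be set against the spread between replicates, none has a test, and whether groups overlap is unknown. The depth behind single values is unknown too. A difference is log2(TPM + 1) in the misexpression minus the same in the control, and because of the added 1 it comes out too small for weakly expressed genes. Comparisons took in every gene that reached 1 TPM in at least 1 of the groups, and a gene is called apart where this difference is 1 or more in size, that is 2-fold. "Higher" and "lower" describe means.

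Each targeted gene was higher where it was driven, at both stages. For kn the levels at AFT were 43.4 TPM in col and 104 TPM in col + lbe against 12.4 TPM in the control, and at St16 92.4 and 81.0 TPM against 25.9 TPM. The gene lbe was at 48.9 TPM in lbe and 88.0 TPM in col + lbe against 0.0488 TPM at AFT, and at 61.2 and 68.2 TPM against 0.0633 TPM at St16. In ap + eya, ap was at 29.8 TPM against 3.03 TPM at AFT and 92.8 TPM against 10.5 TPM at St16, and eya at 25.7 TPM against 2.50 TPM and 88.8 TPM against 11.2 TPM. Both were also higher in col + lbe, where no transgene carried them, at 31.9 TPM (ap) and 23.8 TPM (eya) at AFT and 55.9 and 36.6 TPM at St16. Marker lists put the AFT control apart from the misexpressions. Summed over 11 epidermis and cuticle genes, the misexpressions had 478 to 1014 TPM at AFT and the control 2709.6 TPM, with 6 to 9 of the 11 genes at least 2-fold lower. Summed over 8 gut enzyme genes, the misexpressions had 1248 to 2986 TPM at AFT and the control 806 TPM, with 5 of 7 genes at least 2-fold higher in each. Over 10 pan-neuronal genes the sums were 408 to 531 TPM in the misexpressions and 460.0 TPM in the control, with none 2-fold apart. At St16 the cuticle sums were 1298 to 2625 TPM against 3125 TPM in the control, and the gut enzyme sums 7.76 to 25.2 TPM against 8.37 TPM. Of 10 cuticle genes entered at St16, 6 were at least 2-fold lower in col + lbe and 6 in ap + eya, and 0 in col and in lbe. Gut enzyme genes at least 2-fold higher at St16 were 2 of 4 in col, 0 of 4 in lbe, 2 of 5 in col + lbe and 1 of 3 in ap + eya. The part of these differences in the results below was not tested, and all 4 comparisons of a stage share 1 control mean.

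Counted against the control, few neuropeptide genes were apart at St16 and more at AFT, and 25 of the 37 were not 2-fold apart in any of the 8 comparisons. The 25 include Nplp3, AstCC, Ptth and RYa, which stayed below 1 TPM in every column, entered no comparison and so could not be called. The share of all genes apart in none of the 8 was not computed. At St16 none of the 24 genes entered was apart in col, where 0.623% of all genes were (0.286% higher and 0.337% lower), and none of 24 in lbe, where 0.530% were (0.255% higher and 0.275% lower). In col + lbe at St16, CCHa2 was higher and AstC lower among 24 genes, where 0.428% of all genes were higher, 1.99% lower and 2.41% apart in either direction. In ap + eya at St16, Dh44 was higher among 26 genes, where 0.427% of all genes were higher, 1.18% lower and 1.61% apart.

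At AFT 32 of the 37 genes entered each comparison. In col, Nplp4 was higher and Gpa2 and Orcokinin were lower, 3 genes where 4.29% of all genes were apart (1.91% higher and 2.37% lower). In lbe, Nplp4 was higher and Hug, Lk, Gpa2 and NPF were lower, where 3.47% of all genes were apart (1.48% higher and 1.99% lower). In col + lbe the higher genes were Nplp4, Proc, CCHa2 and Dh44 and the lower ones Hug, Lk, Gpa2 and NPF, 8 of 32 genes or 25.0%, where 7.35% of all genes were apart (3.33% higher and 4.02% lower). In ap + eya, Nplp4 was higher and Hug, Dsk, Orcokinin and Trissin were lower, where 4.45% of all genes were apart (1.85% higher and 2.60% lower). Median-of-ratios rescaling, which sets the typical gene level in every column, turned the split in col + lbe into 3 higher and 5 lower, that in lbe into 1 higher and 3 lower, and that in ap + eya into 2 higher and 4 lower.

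**Figure D1:**
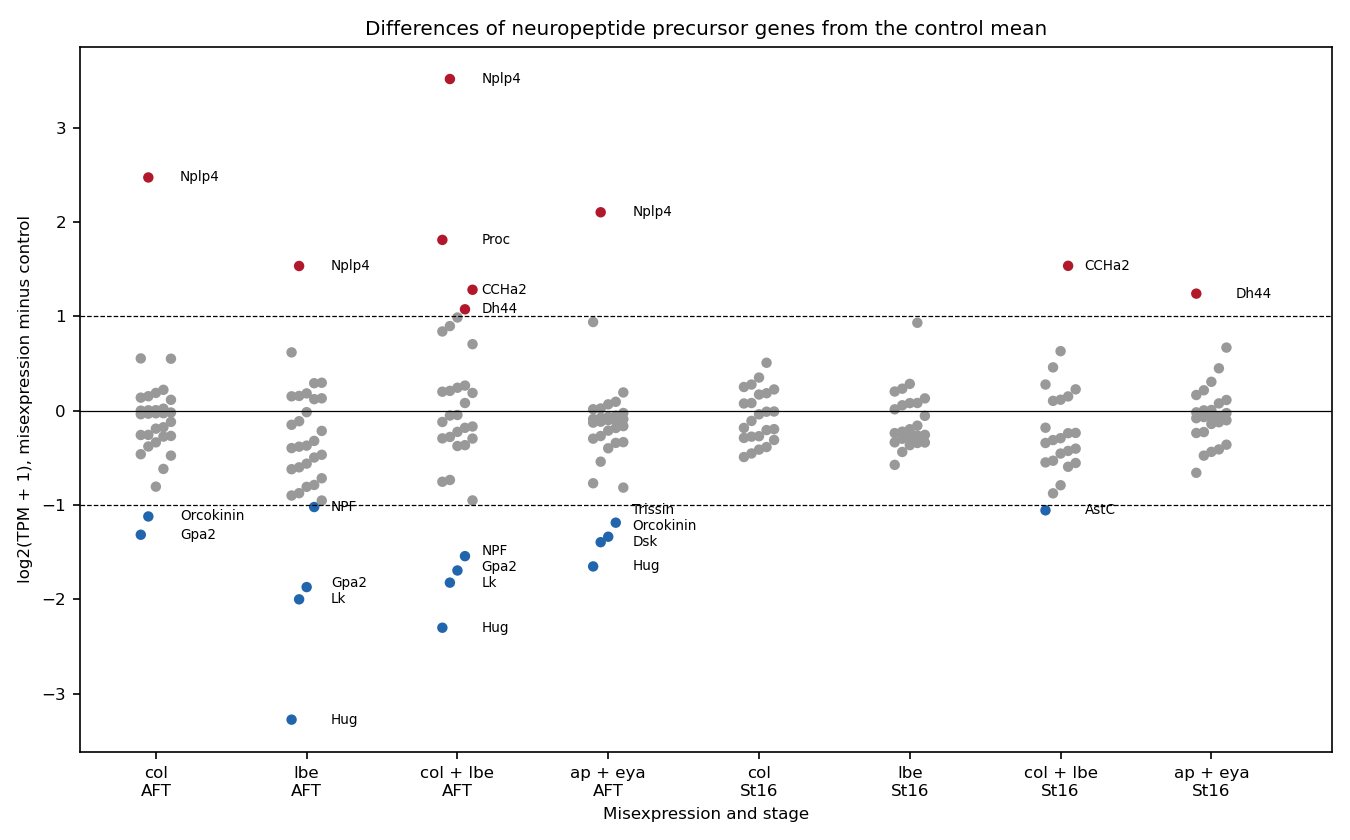
Difference of log2(TPM + 1) between each misexpression and the control (vertical axis) for the neuropeptide genes entered in each comparison, by misexpression and stage. Each point is 1 gene, dashed lines mark 2-fold, and genes at least 2-fold higher (red) or lower (blue) are named; the widest scatter is in col + lbe at AFT, between -2.30 for Hug and 3.52 for Nplp4.

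The median gene of the set lay below the median of all genes in lbe and in col + lbe. Relative to all genes it was -0.145 in lbe and -0.254 in col + lbe at St16, and -0.260 and -0.199 at AFT. In col the relative medians were 0.006 at St16 and 0.063 at AFT, and in ap + eya -0.048 and -0.011. The median of all genes at AFT was itself not at 0: it was 0.114 in col + lbe, and -0.098 in col, -0.129 in lbe and -0.111 in ap + eya, and after median-of-ratios rescaling it lay between -0.011 and 0.018.

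The levels differed widely among the genes. Nplp2 stood far above the rest, at 6405 TPM in col, 7300.1 in lbe, 5334 in col + lbe, 6993 in ap + eya and 6549.9 TPM in the control at AFT. At St16 it was at 2651 TPM in col, 2564 in lbe, 2699 in col + lbe, 2199.7 in ap + eya and 2227 TPM in the control. Nplp2 alone made up 81.2% to 93.6% of the summed TPM of the set in every column, so a sum over the set describes mainly this gene. Without Nplp2 and Nplp4 the other 35 genes summed at AFT to 417 TPM in col, 359.9 in lbe, 533 in col + lbe, 392 in ap + eya and 468 TPM in the control. At St16 these sums lay between 179 and 189 TPM in the misexpressions and at 191 TPM in the control.

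The median gene of the set had 11.4 TPM in the control at AFT and 3.50 TPM at St16. Below 1 TPM in every genotype were 5 genes at AFT, namely Nplp3, AstCC, Ptth, amn and RYa. At St16 there were 11 such genes: Nplp3, Nplp4, AstCC, Tk, Dsk, Trissin, Pburs, Gpa2, Ptth, Hug and RYa. After Nplp2, the leading genes of the control at AFT were Nplp4 (60.6 TPM), Dh31 (44.5), Akh (41.1), ETH (38.0) and AstA (31.8). At St16 they were ITP (41.0 TPM), SIFa (18.6), Orcokinin (17.9), Mip (13.7) and AstA (11.1).

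**Figure D2:**
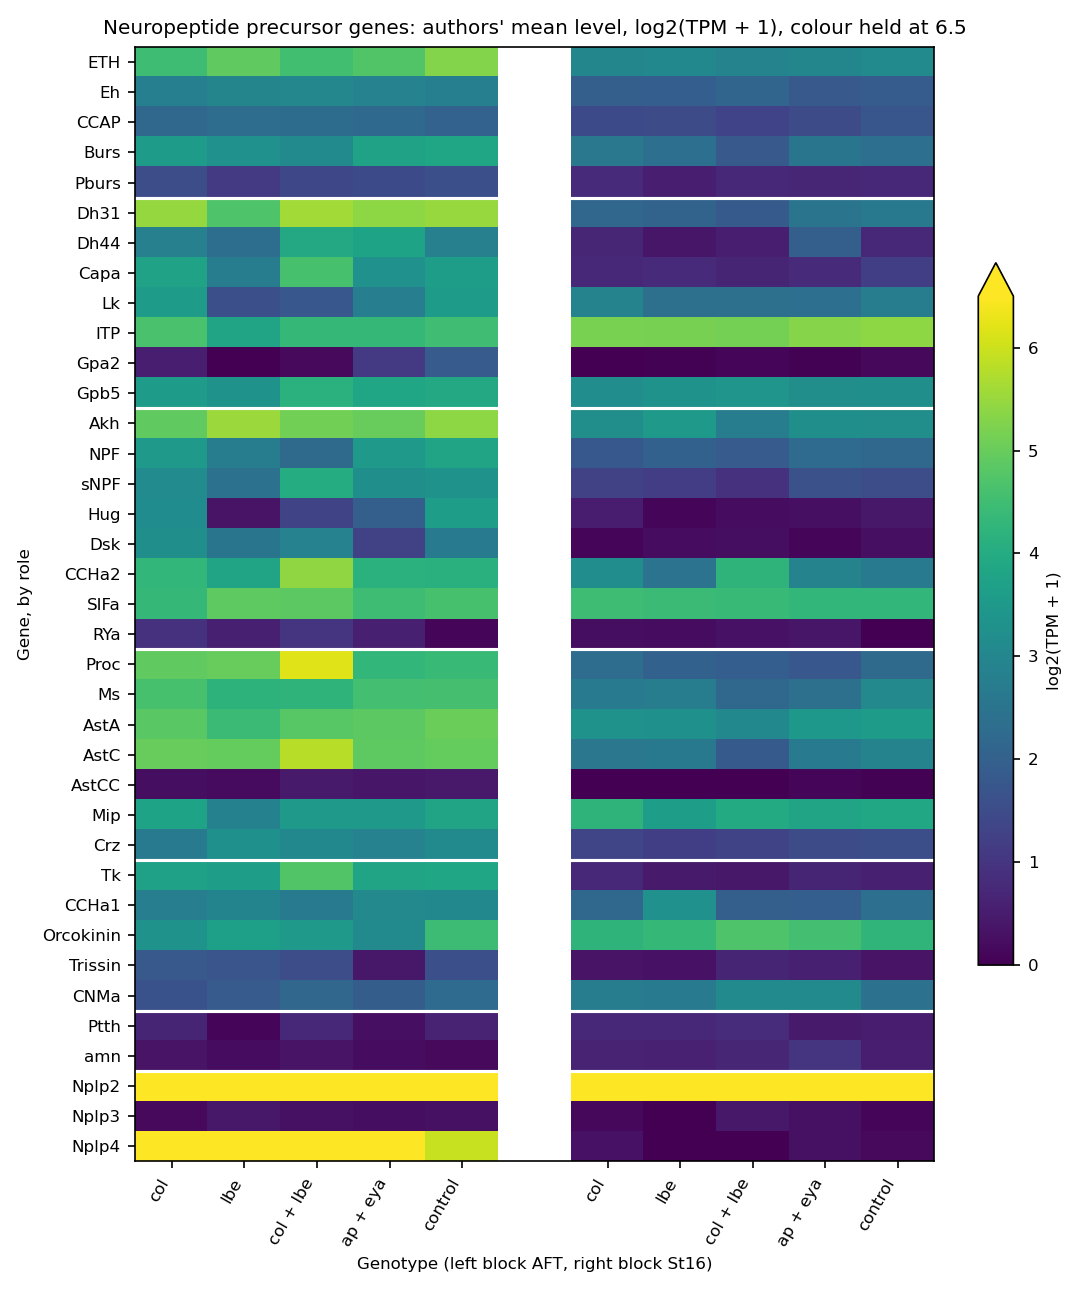
Authors' mean level, as log2(TPM + 1), of the 37 genes (rows, grouped by role between white lines) in each genotype (columns), AFT on the left and St16 on the right. The colour is held at 6.5, which Nplp2 exceeds in every column and Nplp4 in the 4 misexpressions at AFT.

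Most of the set stood higher at the later stage in the control. There 21 of 32 genes were higher by 2-fold or more at AFT and none lower, where 43.8% of all genes were apart (19.0% higher and 24.8% lower). The median difference, AFT minus St16, was 1.52, against -0.365 for all genes. The stages come from separate tables and from libraries of unlike layout (paired reads of 150 bases at AFT and single reads of 50 bases at St16), so stage and layout cannot be told apart.

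The widest stage difference belonged to Nplp4, at 60.6 TPM at AFT against 0.125 TPM at St16 (5.78). Next came Tk, the tachykinin precursor, at 13.3 TPM against 0.495 TPM (3.26), and Hug, the precursor of hugin pyrokinins, at 11.4 TPM against 0.347 TPM (3.20). The diuretic hormone gene Dh31 was at 44.5 TPM against 5.21 TPM (2.87). Tk and Dh31 are also made by endocrine cells of the gut. A few genes were level between the stages or lower at AFT. ITP, the ion transport peptide gene, was at 21.7 TPM at AFT against 41.0 TPM at St16 (-0.89), and Mip was at 12.9 TPM against 13.7 TPM (-0.07). CNMa was at 3.81 TPM against 4.44 TPM (-0.18).

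In each misexpression, too, more genes of the set were higher at AFT than lower. In col 19 of 31 genes were higher at AFT and 1 lower, where 44.8% of all genes were apart (19.1% higher and 25.8% lower). In lbe 18 of 30 were higher and 1 lower, where 45.5% of all genes were apart (18.6% higher and 26.9% lower). In col + lbe 17 of 31 were higher and 1 lower, where 40.6% of all genes were apart (20.6% higher and 20.0% lower). In ap + eya 22 of 32 were higher and 3 lower, where 46.8% of all genes were apart (18.3% higher and 28.5% lower). The lower genes were CNMa in col, ITP in lbe, Orcokinin in col + lbe, and ITP, Orcokinin and CNMa in ap + eya. Rescaled together over all 10 columns, no gene was lower in col or lbe, and Orcokinin alone in col + lbe and in ap + eya.

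**Figure D3:**
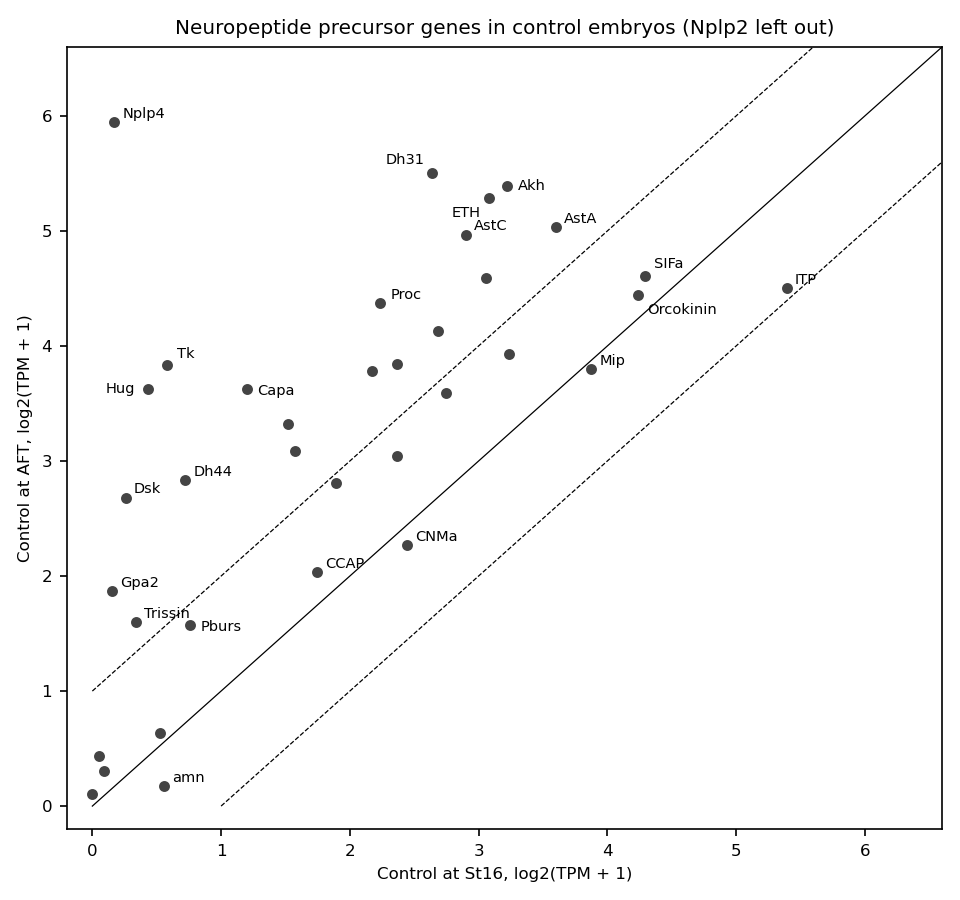
Level of each gene in the control at AFT (vertical axis) against St16 (horizontal axis), both as log2(TPM + 1), with Nplp2 left out for scale. The solid line marks equal levels and the dashed lines 2-fold; 20 of the 36 points drawn lie above the upper dashed line with at least 1 TPM at a stage, and none below the lower one.

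Hormones of ecdysis and cuticle tanning form the first role group. ETH, the ecdysis triggering hormone of the Inka cells, was at 21.3 TPM in col, 29.2 in lbe, 22.1 in col + lbe, 25.8 in ap + eya and 38.0 TPM in the control at AFT. It was lower in all 4 misexpressions, by less than 2-fold (-0.81 in col, the widest). At St16 its levels lay between 6.46 and 7.14 TPM in the misexpressions and at 7.46 TPM in the control. Eh, the eclosion hormone gene, was at 6.01 to 7.04 TPM in the misexpressions and 6.00 TPM in the control at AFT. CCAP, the crustacean cardioactive peptide gene, was at 3.55 to 4.02 TPM against 3.09 TPM. No gene of this group of 5 was 2-fold apart from the control in any comparison.

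Burs and Pburs encode the subunits of bursicon, the hormone that tans and hardens new cuticle. Burs was at 10.9 TPM in col, 8.72 in lbe, 7.62 in col + lbe, 12.4 in ap + eya and 13.3 TPM in the control at AFT. Pburs was at 1.92, 1.15, 1.65, 1.73 and 1.98 TPM in the same order. Both subunits were highest in the control, and the ratio of Burs to Pburs TPM was 4.61 in col + lbe and 5.68 to 7.56 in the other misexpressions against 6.74 in the control. At St16 Burs was lowest in col + lbe as well, at 2.53 TPM against 4.17 TPM in the control (-0.55).

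Diuretic and ion transport hormones act on the Malpighian tubules and hindgut. Dh44, the corticotropin-releasing factor-like peptide gene, was at 6.13 TPM in col, 4.06 in lbe, 14.0 in col + lbe, 12.7 in ap + eya and 6.14 TPM in the control at AFT. It was about equally high in the 2 joint misexpressions, with differences of 1.08 in col + lbe and 0.94 in ap + eya. Rescaled, these were 0.97 and 1.04, so which of them passed 2-fold depended on the scaling. The St16 levels were 0.619 TPM in col, 0.313 in lbe, 0.448 in col + lbe, 2.90 in ap + eya and 0.649 TPM in the control. There the high level was in ap + eya alone (1.24), at low TPM. On the annotation Dh44 shares its span with Fst, on the other strand, and whether reads were assigned by strand was not stated in the sources used here.

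Lk, the leucokinin gene, was at 10.9 TPM in col, 2.01 in lbe, 2.40 in col + lbe, 5.85 in ap + eya and 11.1 TPM in the control at AFT. The 2 genotypes with lbe stood lowest (-2.001 in lbe and -1.82 in col + lbe), and col was level with the control (-0.02). With the median of the other 4 genotypes as the reference, Lk was still apart in lbe and in col + lbe, and was then 1.21 higher in col. St16 levels lay at 4.22 to 6.54 TPM in the misexpressions and at 5.70 TPM in the control. Antisense genes overlap it on the annotation.

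Gpa2 and Gpb5 encode the subunits of a glycoprotein hormone related to thyrostimulin. Gpa2 was at 0.468 TPM in col, listed at 0 in lbe, 0.129 in col + lbe, 1.14 in ap + eya and 2.66 TPM in the control at AFT. Gpb5, its partner, was at 11.1, 8.94, 16.7, 13.4 and 14.3 TPM in the same order. Gpa2 was thus lower in every misexpression, while Gpb5 was within 2-fold of the control. On the log2(TPM + 1) scale Gpa2 was at least 2-fold lower in col, lbe and col + lbe. In ap + eya it was -0.77 on that scale and -1.215 as the log2 of the plain TPM ratio. At St16 Gpa2 did not pass 0.109 TPM in any genotype. With the median of the other 4 genotypes as the reference Gpa2 was not 2-fold apart in col, lbe or col + lbe at AFT.

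The other diuretic genes were less than 2-fold apart from the control on the log2(TPM + 1) scale. Capa, the capability gene, was at 12.4 TPM in col, 5.62 in lbe, 23.5 in col + lbe, 8.80 in ap + eya and 11.4 TPM in the control at AFT. Its difference in col + lbe, 0.988, fell just short of 2-fold, and its TPM ratio was 2.07. In lbe its plain TPM was 2.02-fold lower (-0.90). Dh31 was at 43.3 TPM in col, 25.0 in lbe, 47.1 in col + lbe, 41.4 in ap + eya and 44.5 TPM in the control at AFT. Its St16 levels were 3.42, 3.17, 2.59, 4.70 and 5.21 TPM, lowest in col + lbe (-0.79). Dh31 and Capa were both lowest in lbe and highest in col + lbe at AFT. ITP was lowest in lbe too, at 12.8 TPM against 19.0 to 24.0 TPM in the other misexpressions and 21.7 TPM in the control, and at St16 it lay between 34.6 and 39.2 TPM against 41.0 TPM.

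Among the feeding and metabolic peptides, Hug showed the widest difference of the whole set that was lower. Hugin neurons of the subesophageal zone relay taste and feeding signals. At AFT Hug was at 7.99 TPM in col, 0.277 in lbe, 1.51 in col + lbe, 2.94 in ap + eya and 11.4 TPM in the control, with differences of -0.46, -3.28, -2.30 and -1.65. The order ran from lbe, lowest, through col + lbe and ap + eya to col and the control. At St16 the highest level was 0.400 TPM, in col, against 0.347 TPM in the control. With the median of the other 4 genotypes as the reference, Hug was still at least 2-fold lower in lbe and in col + lbe, but was -0.55 in ap + eya and 1.48 higher in col. The gene shares its span with Octbeta3R on the other strand.

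NPF, the neuropeptide F gene, was at 10.5 TPM in col, 5.78 in lbe, 3.73 in col + lbe, 10.4 in ap + eya and 12.8 TPM in the control at AFT. Hug, Lk and NPF were thus each lowest in the 2 genotypes that carry the lbe transgene. The difference of NPF in lbe, -1.02, was -0.91 when rescaled, and that in col + lbe was -1.54. Dsk, the drosulfakinin gene, whose peptides signal satiety, was at 8.40 TPM in col, 4.78 in lbe, 6.31 in col + lbe, 1.44 in ap + eya and 5.42 TPM in the control. It was low in ap + eya alone (-1.40), also against the median of the other 4 genotypes, and at St16 it did not pass 0.196 TPM.

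CCHa2, a peptide of gut and fat body that acts on insulin-producing cells, was higher in col + lbe at both stages. At AFT it was at 18.9 TPM in col, 13.0 in lbe, 41.5 in col + lbe, 16.8 in ap + eya and 16.5 TPM in the control (1.28 in col + lbe). At St16 it was at 8.12, 4.60, 17.6, 6.45 and 5.41 TPM in the same order (1.54 in col + lbe). It was the only gene of the set 2-fold apart in the same misexpression at both stages, and it was lowest in lbe at each. The summed gut enzyme genes were also highest in col + lbe at both stages, and at St16 they ran in the order of CCHa2, at 17.2 TPM in col, 7.76 in lbe, 25.2 in col + lbe, 13.0 in ap + eya and 8.37 TPM in the control. At AFT the orders differed. The gut enzyme sum was then lowest in the control (806 TPM, against 1248 TPM in lbe), and CCHa2 was lowest in lbe. In ap + eya at AFT the gut enzyme sum was 1660 TPM, and CCHa2 was near the control. The part of the gut enzyme genes in the difference of CCHa2 was not tested.

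The remaining metabolic peptides were less than 2-fold apart from the control on the log2(TPM + 1) scale. Akh, the adipokinetic hormone gene of the corpora cardiaca, was at 29.2 TPM in col, 45.1 in lbe, 33.7 in col + lbe, 30.9 in ap + eya and 41.1 TPM in the control at AFT. At St16 Akh was highest in lbe as well, at 10.4 TPM against 5.81 to 8.38 TPM in the other misexpressions and 8.33 TPM in the control. SIFa, made by a few brain neurons, had the lowest ratio of highest to lowest level at St16 (1.14) among genes of at least 1 TPM in every genotype, with 18.7 to 21.3 TPM in the misexpressions against 18.6 TPM in the control. At AFT it was at 19.1 TPM in col, 28.8 in lbe, 27.8 in col + lbe, 21.5 in ap + eya and 23.4 TPM in the control. Short neuropeptide F, sNPF, was at 7.83, 4.44, 15.3, 8.38 and 8.97 TPM in that order. Like Capa and Dh31, sNPF was lowest in lbe, where its plain TPM was 2.02-fold lower (-0.87), and highest in col + lbe. RYa stayed below 1 TPM at both stages.

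Of the myoactive and allatostatin peptides, Proc stood out. Proctolin is made by motor neurons and acts on muscle. At AFT Proc was at 29.4 TPM in col, 30.8 in lbe, 71.6 in col + lbe, 18.8 in ap + eya and 19.7 TPM in the control. The single misexpressions lay 0.55 (col) and 0.62 (lbe) above the control, and col + lbe 1.81 above it. At the earlier stage it was at 3.97, 3.04, 2.85, 2.39 and 3.72 TPM, and col + lbe was not high (-0.29).

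AstC, an allatostatin gene, lay on opposite sides of the control at the 2 stages in col + lbe. At AFT it was at 30.8 TPM in col, 30.0 in lbe, 55.1 in col + lbe, 28.7 in ap + eya and 30.3 TPM in the control, and col + lbe was 0.84 higher. At St16 it was at 5.02 TPM in col, 5.16 in lbe, 2.59 in col + lbe, 5.38 in ap + eya and 6.46 TPM in the control, and col + lbe was 1.06 lower on the log2 scale. That St16 difference was -0.805 against the median of the other 4 genotypes and -0.595 with a pseudocount of 5, both short of 2-fold. The difference between the stages was not tested. AstCC, which lies next to AstC on chromosome 2L, did not pass 0.377 TPM at either stage.

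AstA, Ms, Mip and Crz were less than 2-fold apart from the control in all 8 comparisons on the log2(TPM + 1) scale. AstA was at 27.8 TPM in col, 20.6 in lbe, 27.1 in col + lbe, 28.3 in ap + eya and 31.8 TPM in the control at AFT. At St16 it was at 9.00, 8.58, 7.24, 9.99 and 11.1 TPM. The control was highest at both stages. Mip, which yields myoinhibiting peptides, was at 12.7, 6.20, 10.4, 10.4 and 12.9 TPM at AFT, lowest in lbe (-0.95), where its plain TPM was 2.09-fold lower. The St16 values were 17.7, 11.3, 14.8, 13.0 and 13.7 TPM. Ms, the myosuppressin gene, was at 17.5 to 23.2 TPM in the misexpressions and 23.1 TPM in the control at AFT, and at 3.54 to 5.79 TPM against 7.34 TPM at St16. Crz, the corazonin gene, was at 5.52 to 8.63 TPM and 7.48 TPM at AFT.

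Peptides shared by brain and gut endocrine cells formed the next group. Orcokinin was at 9.01 TPM in col, 11.6 in lbe, 10.3 in col + lbe, 7.63 in ap + eya and 20.8 TPM in the control at AFT. All 4 misexpressions lay below the control, on the log2(TPM + 1) scale by 2-fold or more in col (-1.12) and ap + eya (-1.34). In col + lbe the difference was -0.952 on that scale and -1.018 as the log2 of the plain TPM ratio. Against the median of the other 4 genotypes the differences were -0.25 in col and -0.47 in ap + eya. At St16 the order was another, with 17.8 TPM in col, 19.0 in lbe, 25.0 in col + lbe, 22.4 in ap + eya and 17.9 TPM in the control.

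Trissin, a cysteine-rich peptide gene, was at 2.53 TPM in col, 2.30 in lbe, 1.92 in col + lbe, 0.329 in ap + eya and 2.03 TPM in the control at AFT. Like Dsk, it was low in ap + eya alone (-1.19). Tk was at 12.2 TPM in col, 11.3 in lbe, 25.6 in col + lbe, 12.8 in ap + eya and 13.3 TPM in the control at AFT, so that col + lbe was 0.90 higher. CCHa1 was at 3.54 TPM in col, 8.83 in lbe, 2.89 in col + lbe, 2.87 in ap + eya and 4.15 TPM in the control at St16. That high level in lbe (0.93, a TPM ratio of 2.13) was not seen at AFT, where CCHa1 was at 6.62 TPM in lbe and 7.24 TPM in the control. CNMa was at 2.14 to 3.43 TPM in the misexpressions and 3.81 TPM in the control at AFT.

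Ptth, whose hormone starts ecdysone synthesis, and amn, named for the amnesiac memory mutant, were at about 1 TPM or below. Ptth was at 0.0908 to 0.669 TPM in the misexpressions and 0.553 TPM in the control at AFT. For amn the St16 levels were 0.509 to 1.01 TPM and 0.470 TPM.

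Among the neuropeptide-like precursors, Nplp4 was at 341 TPM in col, 177 in lbe, 704 in col + lbe, 264 in ap + eya and 60.6 TPM in the control at AFT. It was the only gene of the set at least 2-fold apart from the control in all 4 misexpressions of a stage, with differences of 2.47, 1.53, 3.52 and 2.10. The control was the low value here. The summed gut enzyme genes ran in the same order, at 2007 TPM in col, 1248 in lbe, 2986 in col + lbe, 1659.6 in ap + eya and 806 TPM in the control, and their part in the difference of Nplp4 was not tested. With the median of the other 4 genotypes as the reference the difference in lbe changed sign to -0.77, those in col and ap + eya were 0.63 and 0.03, and col + lbe alone remained at least 2-fold higher. At St16 Nplp4 did not pass 0.250 TPM and was listed at 0 in lbe and in col + lbe. Nplp2 differed by at most 0.30 from the control in any misexpression at either stage, and Nplp3 stayed below 1 TPM.

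**Figure D4:**
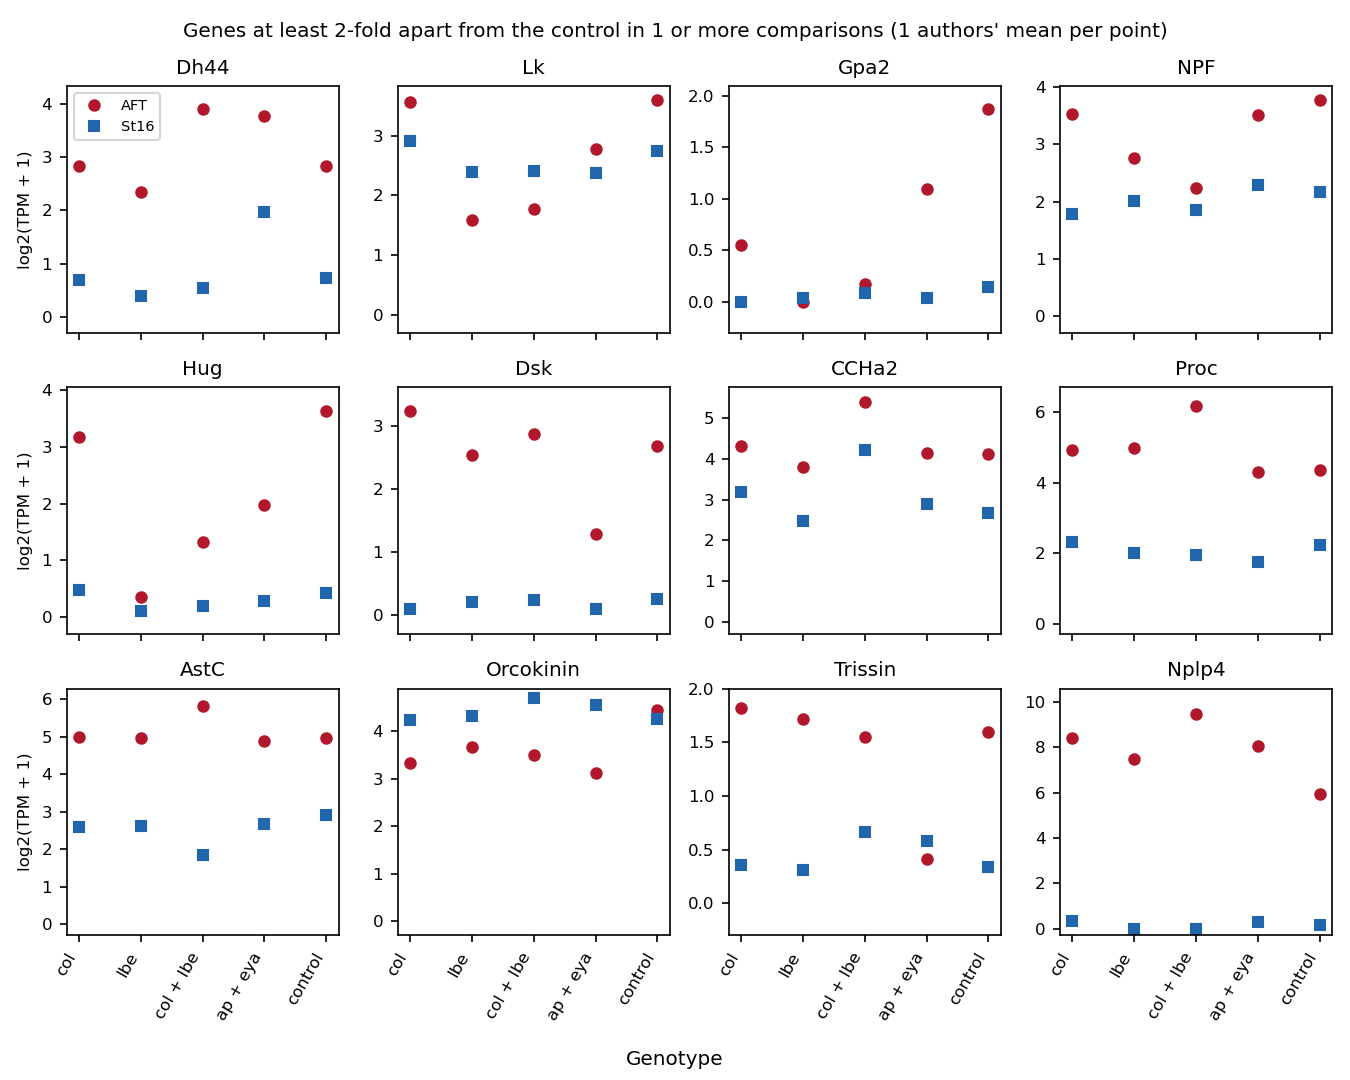
Level, as log2(TPM + 1), of the 12 genes that were apart by 2-fold or more in 1 or more comparisons with the control, by genotype, with AFT as red circles and St16 as blue squares. Each point is 1 authors' mean; Hug, Lk and NPF are lowest at AFT in lbe and col + lbe, Dsk and Trissin in ap + eya, while Proc, CCHa2 and Nplp4 are highest in col + lbe.

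The genotype that held the extreme value was counted for genes with at least 1 TPM in any genotype. At AFT lbe was the lowest genotype for 15 of 32 genes, where it was lowest for 28.4% of all genes. The 15 were Dh31, Dh44, Ms, AstA, Mip, Tk, sNPF, CCHa2, Capa, Lk, ITP, Pburs, Gpa2, Gpb5 and Hug. The highest genotype at AFT was col + lbe for 11 of 32 genes, where it was highest for 50.5% of all genes, and the control for 11, where it was highest for 27.3%. At St16 col + lbe was lowest for 11 of 26 genes, against 25.8% of all genes, and the control highest for 9, against 35.1%. The ratio of highest to lowest level was taken in plain TPM, with no 1 added, over genes with at least 1 TPM in every genotype. It was 2 or more for 12 of 29 neuropeptide genes at AFT, against 12.7% of all genes. At St16 this held for 5 of 22, against 4.31% of all genes.

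Joint misexpression was also set against the single ones. Adding the difference of col to that of lbe and subtracting this sum from the difference of col + lbe gives a non-additive value, which is 0 where the single differences add up on the log2 scale. At AFT it was 1 or more for 8 of 32 genes and -1 or less for none, where 6.21% and 2.19% of all genes were, 8.40% together. The 8 were Capa (1.77), sNPF (1.76), Dh44 (1.57), Gpa2 (1.49), Hug (1.44), CCHa2 (1.42), Tk (1.23) and Gpb5 (1.17). After median-of-ratios rescaling 6 of them remained at 1 or more, and Tk and Gpb5 did not. For Hug and Gpa2 the single differences add up to more than a level of 0 TPM in col + lbe could give, so their values had to be positive, and that of Gpa2 above 1, whatever the level in col + lbe. The median over the set was 0.41, against 0.31 over all genes. At St16 CCHa2 had a value of 1.23 and CCHa1 of -1.15, where 0.414% of all genes were at 1 or more, 1.09% at -1 or less and 1.51% at either.

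The 2 joint misexpressions could be compared without the control mean. At AFT 6 of 32 genes were at least 2-fold higher in col + lbe than in ap + eya and 2 lower, where 3.39% of all genes were apart (2.30% higher and 1.10% lower). Proc (1.88), Dsk (1.58), Nplp4 (1.41), Capa (1.32), CCHa2 (1.26) and Trissin (1.14) were higher, and NPF (-1.27) and Lk (-1.01) lower. At St16 CCHa2 was higher (1.32) and Dh44 lower (-1.43) among 25 genes, where 0.952% of all genes were apart (0.358% higher and 0.594% lower).

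Of the genes that process and package the peptides, a list of 13, 5 were at least 2-fold higher in col + lbe at AFT, where 3.33% of all genes were higher. They were the amidating enzyme gene Pal2, the vesicle protein gene IA-2, the convertase gene amon, the peptidergic factor gene dimm and the carboxypeptidase gene svr. Pal2 was at 30.8 TPM in col, 30.7 in lbe, 103 in col + lbe, 29.7 in ap + eya and 32.9 TPM in the control. On the log2 scale no gene of the list was 2-fold apart in the other 7 comparisons with the control. By plain TPM, dimm was more than 2-fold higher in col + lbe at St16 too, at 4.56 TPM against 1.99 TPM in the control. It was also at least 2-fold higher there than in ap + eya (1.75 TPM) on the log2 scale.

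Of a list of 34 receptor genes, 32 entered the comparison of col + lbe at AFT. Of these only the tachykinin receptor gene TkR99D was 2-fold apart on the log2(TPM + 1) scale, where 7.35% of all genes were. It was at 12.6 TPM against 5.65 TPM in the control (1.04). Its ligand gene Tk was 0.90 higher in the same comparison. By plain TPM, CCHa1-R (7.70 against 3.35 TPM) and CCKLR-17D1 (3.06 against 1.14 TPM) were more than 2-fold higher too. Of the 32 receptor genes 27 lay above the control, with a median difference of 0.319 against 0.114 over all genes. The share of all genes above the control was not computed, and col + lbe was the highest genotype for 50.5% of all genes at AFT. In the other 7 comparisons with the control no receptor gene was 2-fold apart on the log2(TPM + 1) scale. Receptors of the ligands that were apart were themselves within 2-fold. Proc-R was at 12.1 TPM in col + lbe against 13.9 TPM, CCHa2-R at 6.92 TPM against 4.14 TPM, and Lkr at 3.87 TPM in lbe against 5.05 TPM. PK2-R2, a receptor for hugin peptides, was at 8.20 TPM in lbe against 8.74 TPM. Between the stages, 15 of 31 receptor genes stood 2-fold or more higher at AFT in the control and none lower. Of all genes 43.8% were apart (19.0% higher and 24.8% lower), and stage and read layout cannot be told apart here either.

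The genes are short and spread over the genome. On annotation BDGP6.54 all 37 were found, with a median coding length of 423 bases, from 192 in Nplp4 to 1068 in Dh44, against a median of 1173 bases over 13986 protein-coding genes. Chromosome arm 3R holds 15 of them, 2L holds 9, 3L holds 6, 2R holds 5 and the X 1, where 24.5% of protein-coding genes lie on 3R. Gpa2 lies on an unplaced scaffold. Hug (FBgn0028374) lies on 3R from 12526188 to 12529076 on the plus strand, CCHa2 (FBgn0038147) on 3R from 13389059 to 13395197 on the minus strand, and Dh44 (FBgn0012344) on 3R from 9638182 to 9650706 on the plus strand. Proc (FBgn0045038) lies on 2L from 7864642 to 7871432 on the minus strand and Nplp4 (FBgn0040717) on 2L from 2008414 to 2009072 on the plus strand. Lk (FBgn0028418) lies on 3L from 14560139 to 14560764 on the minus strand. Another annotated gene or transposon overlaps the span of 13 of the 37, and the share over all genes was not computed. Among the 13, Dh31 overlaps Bace on its own strand and Dsk overlaps CR33294 on the other strand.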

How the data were processed

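Whole embryos were sequenced in 30 samples, 3 for each of 5 genotypes at each of 2 stages, at 30 to 50 M reads a sample, per the labels' protocols. The submitters' processing notes name kallisto 0.43.1 and the build BDGP6. No source used here states how transcript values were added up to genes or whether counting used strand. The deposited values are TPM, 1 column per genotype and stage, on a linear scale. They were read as the authors' means of 3 replicates, because TPM values between 10 and 100 times 3 were whole in decimal place 4, to a tolerance of 0.02, in 56.2% of cases at St16 and 54.5% at AFT. Factors of 1, 2, 4 and 5 gave 19.9% to 28.0%. A limma fit over libraries had been planned and could not be made on means, so no result has a p-value, and without depth none has a counting interval.

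From the deposited TPM, differences of log2(TPM + 1) were computed for every gene in the tables, and rows of the 37 genes are printed, each count beside the share of all genes past the threshold. The rule for genes described by name took the 12 that were 2-fold apart from the control in any of the 8 comparisons and the 6 of highest control TPM at each stage, 20 in all; the rest are given by values and ranges. The genes and lists were chosen with earlier results of these data known. Other settings were a pseudocount of 0.1 or of 5, leaving out the filter or raising it to 5 TPM, median-of-ratios rescaling, taking the median of the other 4 genotypes as reference and, added later, the ratio of plain TPM. The code was tested on simulated data. Positions are from the annotation BDGP6.54, since the tables give none. The work was done in Python 3.11.15 with numpy 2.4.6 and pandas 2.3.3.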

Additional observations from a re-analysis of the deposited data

How the results depend on the processing

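Of 99 recomputed counts, 74 stayed within 1.5 times the reported one. This compares totals only, not which genes were apart, and includes counts of 0 that stayed 0. In col at AFT, against the median of the other 4 genotypes, the total went from 3 to 2 with no gene in common. Lk and Hug were then higher, and Nplp4, Orcokinin and Gpa2 were no longer apart. With a pseudocount of 5 the genes apart came to 1 in col + lbe and 0 in ap + eya at St16, 1 in col, 3 in lbe and 3 in ap + eya at AFT, 11 (lbe) and 13 (ap + eya) for AFT against St16, 0 (St16) and 4 (AFT) for col + lbe against ap + eya, and 0 (St16) and 4 (AFT) for non-additive values. With a pseudocount of 0.1 they came to 1 in lbe, 4 in col + lbe and 4 for col + lbe against ap + eya, all at St16. A filter of 5 TPM gave 0 in ap + eya and 1 for col + lbe against ap + eya at St16. With the median of the other 4 genotypes as the reference there was 1 in lbe and 1 in col + lbe at St16, and 3 in lbe and 2 in ap + eya at AFT. The plain TPM ratio gave 1 in lbe, 6 in col + lbe, 2 in ap + eya and 4 for col + lbe against ap + eya at St16, and 8 in lbe at AFT. Of 1116 recomputed values of single genes, all from the 20 described by rule, 27 were no longer called and 14 were newly called. Of the 27, 5 were left out by the filter of 5 TPM with their differences as before. Genes outside the 20 moved as well, such as CCHa1 in lbe at St16, apart with a pseudocount of 0.1. Against the median of the other 4 genotypes, Nplp4 in lbe at AFT, 2-fold higher against the control, changed sign to -0.77, and Hug (1.48) and Lk (1.21) in col at AFT, below 2-fold against the control, came out 2-fold higher. Apart from the filter, the cause was not tested. Leaving out single replicates was not run, since the columns are means. No paired analysis was possible because the tables hold 1 mean per genotype and the labels give no shared replicate numbers. Values near or under 1 TPM, such as those of Gpa2, Trissin and the 11 genes under 1 TPM in every genotype at St16, rest on an unknown number of reads.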
